A study of Drosophila melanogaster with 4 samples.

Results

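The loci described here are the Rhino-dependent piRNA source loci of clusters classed as Enok-unbound that lie on 3RHet, the sequence of the dm3 build that holds assembled heterochromatin of the right arm of chromosome 3. Each locus is a bin of 1 kb. All bins with 3RHet as their chromosome in the Enok-unbound table and a value above 0 in all 4 libraries were taken, which gave 466 of the 2364 bins in both tables. They fell into 17 clusters of 10 to 58 bins, and none of the 466 was lost to the requirement of a value above 0. Of the 466 bins, 18 were shorter than 1 kb. The class names are labels of the tables. The rule behind them is not given in the sources used here, so they are not used as a measure of Enok binding.

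Rhino ChIP-seq was carried out on ovaries of 2 to 3 day old *Drosophila melanogaster* adults in which *enok* (enok_KD) or, as the control, EGFP (GFP_KD) was targeted by a short hairpin RNA. Both genotypes carried 1 copy of each of the MTD-Gal4 drivers, a transgene that joins otu to GAL4::VP16, GAL4-nos.NGT and GAL4::VP16-nos.UTR, and a hairpin inserted at attP2, either VALIUM20-EGFP.shRNA.1 or TRiP.HMS02634. RNAi ran at 29 °C for 2 to 3 days, and females received wet yeast for 1 to 2 days before dissection. The drivers act in the germline, whereas a dissected ovary also holds somatic follicle cells, and fewer germline cells and less Rhino per cell cannot be told apart. The design text of the series names RNA polymerase II, but its title and the antibody that the protocol lists are for Rhino, and the libraries are described here as Rhino IPs. Each knockdown has 1 input and 1 IP library, so no difference between the knockdowns has a replicate check, and no p-value is given.

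Piwi-interacting RNAs (piRNAs) are small RNAs that guide Piwi proteins to silence transposons in the germline. In *Drosophila* many of them are cut from long precursors transcribed from both strands of heterochromatic clusters filled with transposon remnants. Rhino, a germline member of the HP1 family, binds H3K9me3 at these clusters and, with Deadlock and Cutoff, licenses their transcription without a conventional promoter. Enok is an acetyltransferase of histone H3.

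The libraries held 7742110 (GFP_KD input), 8196249 (enok_KD input), 8024682 (GFP_KD IP) and 6657843 (enok_KD IP) uniquely mapped reads, as worked out from the values. The deposited values are RPM (reads scaled to the depth of the library), divided by the mappability of the bin, and occupancy is the log2 of IP over input. The median member held 16 and 17 input reads and 38 and 27 IP reads in GFP_KD and enok_KD. The reads of a bin are given as the lowest counts that the values allow, and some bins may hold more. A change is the enok_KD occupancy minus the GFP_KD occupancy, and the ± given with the change of a bin or of pooled reads is its counting SE, which covers counting error only. The median counting SE of a single bin was 0.63 on the log2 scale, so that a 2-fold difference in 1 bin often lay within counting error.

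Rhino was enriched over input in most of these bins in both knockdowns. The median occupancy was 1.09 in GFP_KD and 1.22 in enok_KD, against 0.95 and 0.93 over all 2363 bins of both tables. The lower quartile over all bins was 0.42 in each knockdown, so enrichment was not particular to the members. Among the members, values above 0 were found in 432 bins (92.7%) of GFP_KD and in 435 bins (93.3%) of enok_KD. An enrichment of at least 8-fold was found in 32 and 27 of them. These counts were not made over all bins. The level differed from cluster to cluster. In GFP_KD the cluster medians ran from 0.47 in cluster 93 to 2.84 in cluster 59, and in enok_KD from 0.30 in cluster 93 to 1.91 in cluster 69. Across the 466 bins the occupancies of the knockdowns had a Pearson r of 0.49 and a Spearman rho of 0.48, a description of bins that share libraries, base composition and neighbours. The input values of the same bins had a Pearson r of 0.93 on the log2 scale.

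The median change over the 466 bins was 0.00, with quartiles of -0.58 and 0.64, and the values were split evenly, with 233 bins above and 233 below 0. Behind this median, clusters moved in opposite directions. Values are scaled to the reads of each library, so a change is relative to the rest of the library and gives no absolute amount of Rhino. Pooled reads changed by 0.39 in the members and by -0.27 in all other bins of both tables. Of those other bins, the parts most like the members also changed upward. Enok-unbound bins changed by 0.25 on the assembled arms and by 0.17 on 3LHet, the left-arm counterpart of 3RHet. Enok-bound bins changed by 0.15 on 3LHet and by 0.09 on 3RHet. The cluster medians of the change ran from -0.73 in cluster 138 to 1.11 in cluster 49, with an SD of 0.57 over the 17 clusters. For the input alone they ran from -0.37 to 0.33, with an SD of 0.19.

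**Figure D1:**
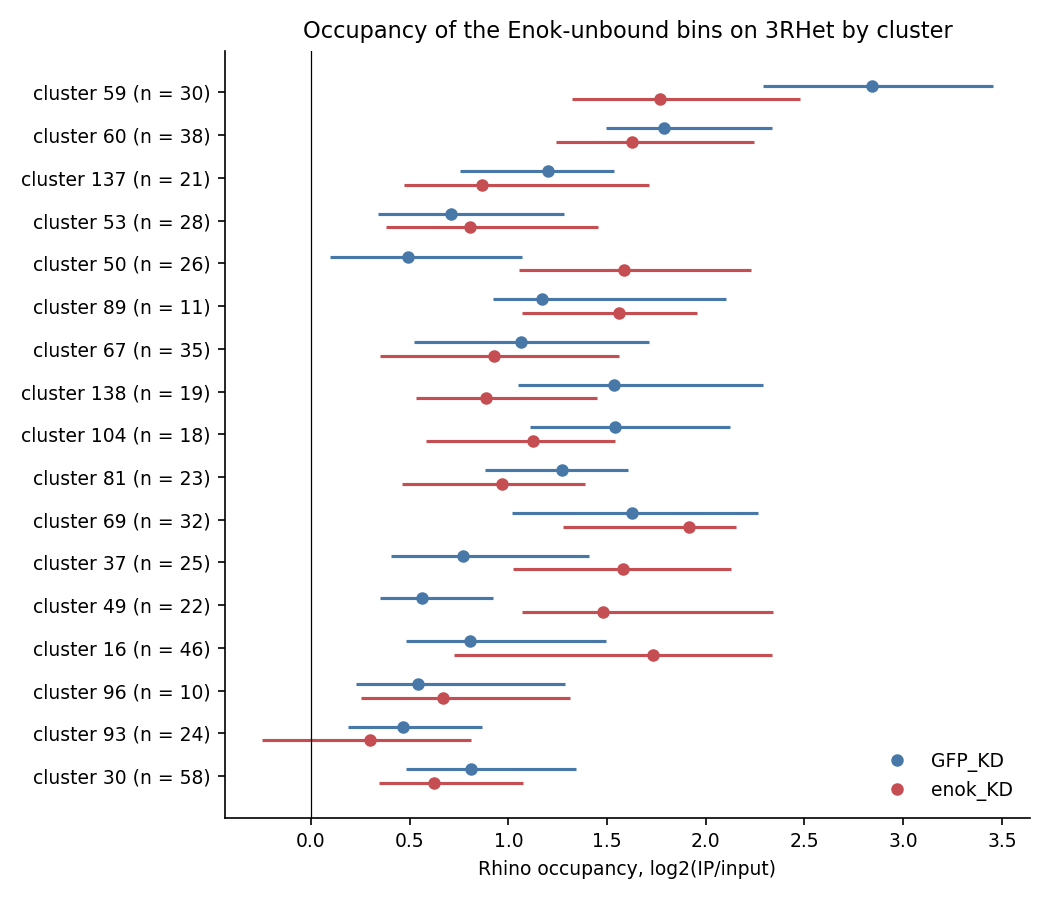
Occupancy as log2(IP/input) on the x axis for the 17 clusters, from the first at the top to the last at the bottom in their order along 3RHet, with n as the number of bins. Points are medians and lines run from the lower to the upper quartile over bins. Clusters 50, 37, 49 and 16 have the enok_KD median (red) to the right of the GFP_KD median (blue) by the widest margins, and cluster 59 has the highest GFP_KD median, 2.84.

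At least 2-fold higher occupancy in enok_KD was found in 82 of the 466 bins (17.6%), where the share over all 2363 bins of both tables with values above 0 was 10.2%. At least 2-fold lower occupancy was found in 61 bins (13.1%), close to the 12.8% over all bins. The bins in these groups differed in depth. Those at least 2-fold higher had a median of 29.5 and 21.5 input reads in GFP_KD and enok_KD, while those at least 2-fold lower had 6 and 11. A change upward beyond the 95% counting interval of the bin, which follows from its counting SE, was found in 75 members (16.1%, against 11.7% of all bins) and downward in 28 (6.01%, against 10.7%).

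Clusters 50, 37, 49 and 16 were the only ones of the 17 whose median change exceeded 0.37, the largest size of a cluster's median change in the input alone. They held 119 bins, of which 56 (47.1%) were at least 2-fold higher and 0 at least 2-fold lower. As the clusters were picked by their median change, these counts describe them and test nothing. These 56 bins were 68.3% of all members that were at least 2-fold higher, and 53 of them lay beyond their 95% counting intervals. Their median change was 1.31 in the IP alone and -0.22 in the input alone. Of the 347 bins in the other 13 clusters, 26 (7.49%) were at least 2-fold higher, and only 6 of these lay beyond their 95% counting intervals. In those 26 bins the median change was 0.18 in the IP alone and -1.43 in the input alone, on medians of 12 and 4.5 input reads, so the input moved more than the IP. The part of the input in these changes was not tested further.

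**Figure D2:**
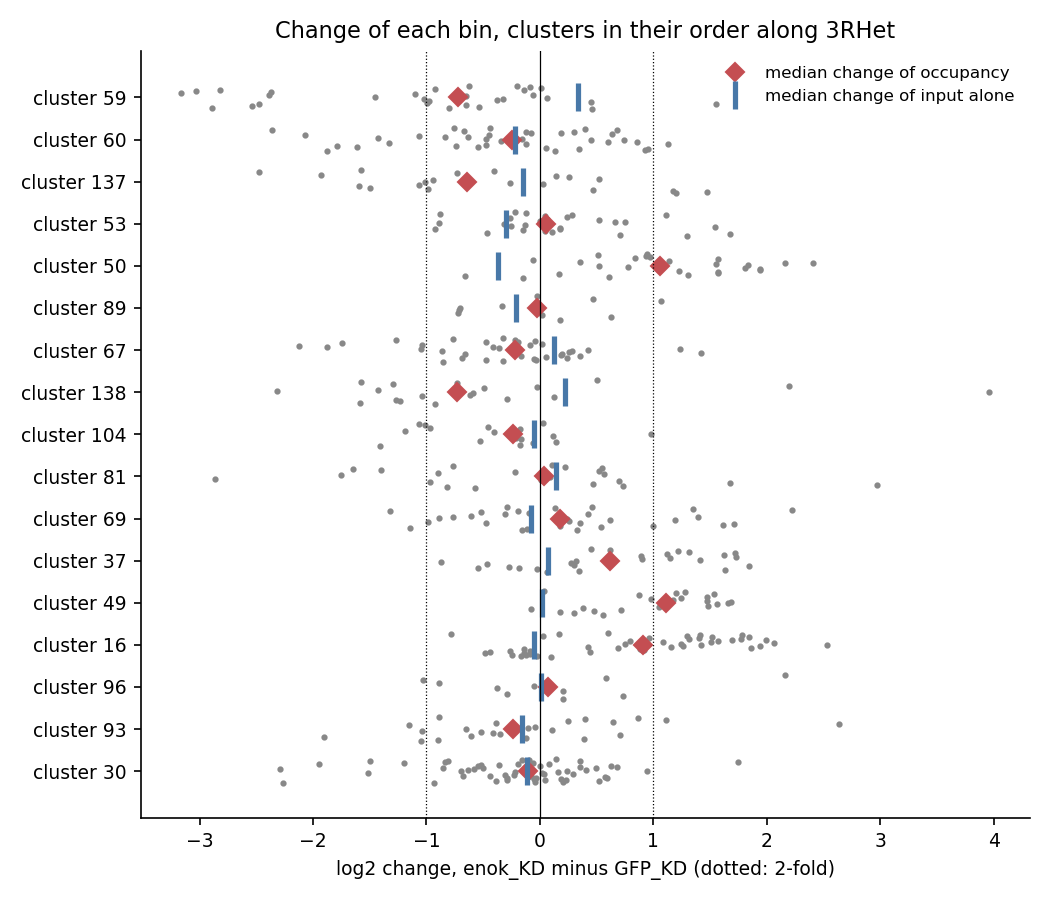
The log2 change of each of the 466 bins (grey points) on the x axis, by cluster in order along 3RHet from top to bottom. Red diamonds are the median change of occupancy and blue ticks the median change of the input alone, and dotted lines mark 2-fold. The medians of clusters 50 and 49 lie beyond the upper dotted line, at 1.06 and 1.11, and the medians of the input alone lie between -0.37 and 0.33.

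Cluster 49 (22 bins, 3RHet 1776001 to 1799907) had the largest median change, from an occupancy of 0.56 in GFP_KD to 1.48 in enok_KD, with a median change of 1.11 and 21 of 22 bins higher. It was also the deepest of the 17 clusters by median reads, with 64 and 66 input reads and 98.5 and 127.5 IP reads in GFP_KD and enok_KD. The change was unequal along it. The first 7 bins, up to 1784000, changed by between -0.08 and 0.72. From 1784001 to 1791000 lay the longest run of adjoining bins at least 2-fold higher among all members, 7 bins with changes from 1.05 to 1.69. In the bin with the largest change, 1788001 to 1789000, the input was 29.9 and 25.9 RPM and the IP 48.9 and 136.2 RPM in GFP_KD and enok_KD, a change of 1.69 ± 0.29. The input of this bin thus moved little, and the difference lay in the IP. The bin with the highest occupancy in both knockdowns, 1798001 to 1799000, had 2.23 and 3.51. It held 7 and 4 input reads at the lowest counts allowed, and its change of 1.28 ± 0.97 lay within its 95% counting interval.

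Cluster 50 (26 bins, 617644 to 646000) had a median occupancy of 0.49 in GFP_KD, the lowest but 1 of the 17 clusters, and 1.59 in enok_KD. Its median change was 1.06, and 23 of its bins were higher. A run of 6 adjoining bins at least 2-fold higher spanned 624001 to 630000, with changes from 1.22 to 1.94, and a second of 4 bins spanned 632001 to 636000. In the bin 627001 to 628000 the input was 9.69 and 6.29 RPM and the IP 16.6 and 41.3 RPM in GFP_KD and enok_KD, a change of 1.94 ± 0.38. This was among the 5 largest upward changes of the members at or above their median level. The input of the cluster was itself lower in enok_KD, with a median change of -0.37, and the median change of the IP alone was 0.82. The highest enok_KD occupancy of the cluster, 3.04 at 635001 to 636000, rested on 3 input reads. The highest of GFP_KD, 2.10 at 623001 to 624000, rested on 7 or more.

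Cluster 16 (46 bins, 2035001 to 2108757) consisted of a stretch of bins with little change and, further along, a stretch that was higher in enok_KD. The 12 bins from 2035001 to 2048000 had a median occupancy of 0.57 in GFP_KD and 0.42 in enok_KD, with changes from -0.49 to 0.44 and a median of -0.13. After a gap of over 5 kb, the 34 bins from 2071001 to 2108757 had medians of 0.97 and 2.05, with a median change of 1.28 and 32 bins higher. All 21 bins of the cluster at least 2-fold higher lay in this second stretch. Its strongest bin, 2099001 to 2100000, had the highest occupancy of the cluster in both knockdowns. The input there was 11.0 and 8.58 RPM and the IP 98.05 and 276.1 RPM in GFP_KD and enok_KD, so that occupancy went from 3.16 to 5.01, a change of 1.85 ± 0.25. The latter was the highest enok_KD occupancy among the 466 bins.

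Of the 5 largest upward changes among the members at or above the median level, 4 lay in this stretch. The largest was at 2084001 to 2085000, with an input of 5.54 and 2.83 RPM and an IP of 6.90 and 20.4 RPM in GFP_KD and enok_KD, a change of 2.53 ± 0.58. At 2088001 to 2089000 the input was 17.8 and 10.9 RPM and the IP 53.4 and 136.4 RPM, a change of 2.06 ± 0.34. At 2094001 to 2095000 the input was 15.4 and 12.7 RPM and the IP 25.6 and 83.7 RPM, a change of 1.99 ± 0.34. In all of these the IP was higher and the input lower in enok_KD, and the IP moved by more. The fourth bin, 2083001 to 2084000, had an input of 8.33 and 6.47 RPM and an IP of 9.76 and 29.1 RPM, a change of 1.94 ± 0.50.

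Cluster 37 (25 bins, 1611001 to 1675840) had medians of 0.77 in GFP_KD and 1.58 in enok_KD, with a median change of 0.61, and 10 of its bins were at least 2-fold higher. Its pooled reads gave a larger change, 1.07 ± 0.08. The last stretch, 8 bins from 1668001 to 1675840, was higher in every bin, by 0.45 to 1.72, with pooled reads at 1.28 ± 0.12. The 12 bins from 1629001 to 1644000 had a median change of 0.31 and pooled reads at 0.85 ± 0.14. The first 5 bins, from 1611001 to 1621000, had a median change of 0.06 and pooled reads at 0.63 ± 0.25, with 1615001 to 1616000 at 1.63 ± 0.43. In the bin 1671001 to 1672000 the input was 13.3 and 14.7 RPM and the IP 24.9 and 90.8 RPM in GFP_KD and enok_KD, a change of 1.72 ± 0.26. The input of this bin was thus nearly level while its IP was over 3 times as high in enok_KD.

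**Figure D3:**
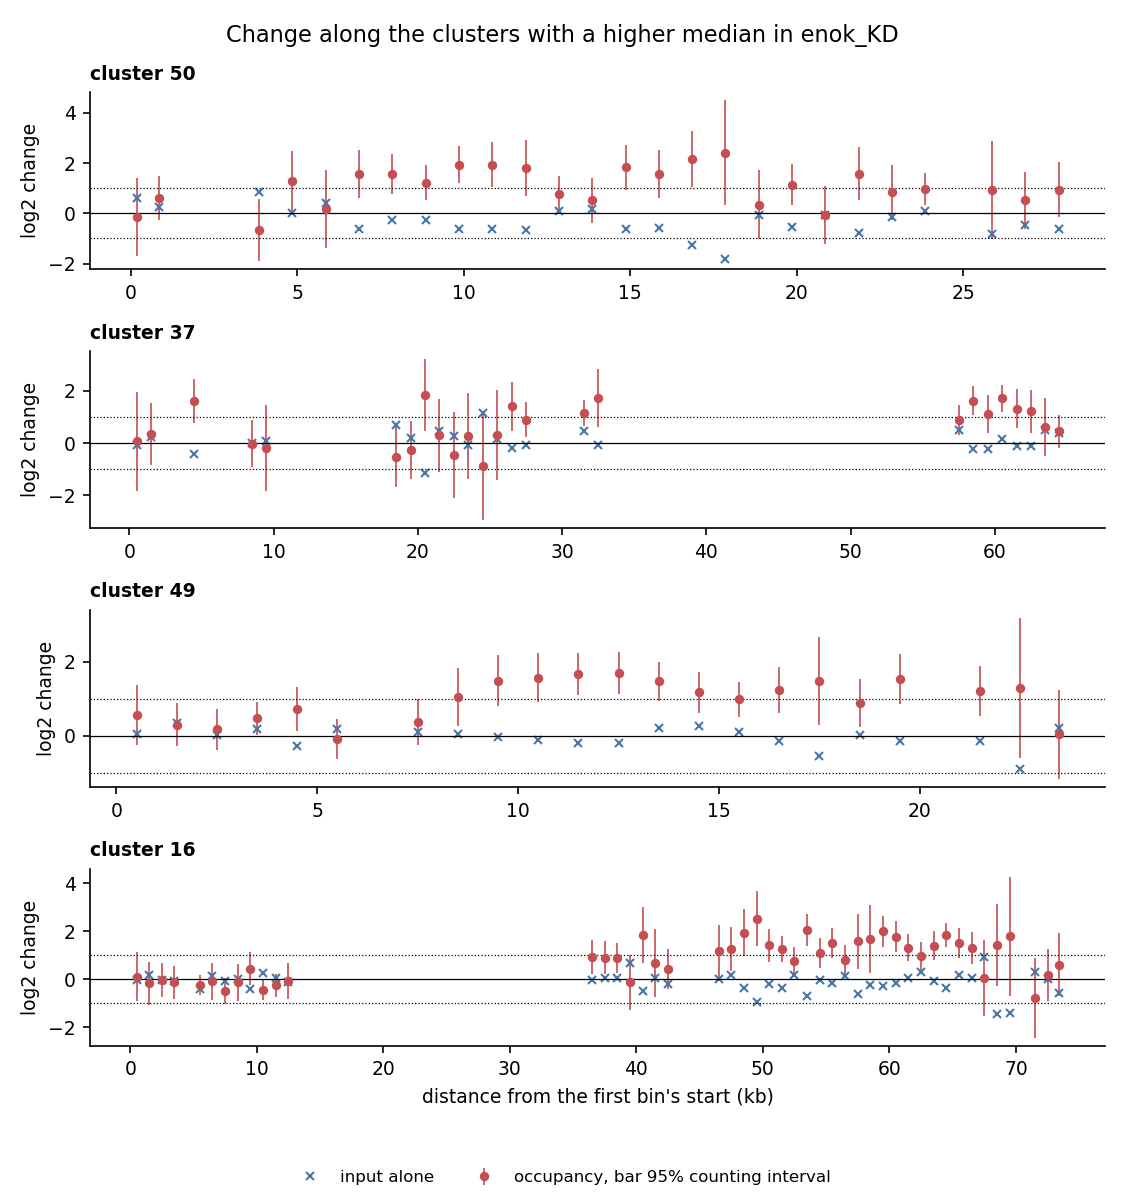
The log2 change (y axis) of each bin in clusters 50, 37, 49 and 16 against its distance from the start of the cluster's first bin in kb (x axis). Red points are occupancy with bars of the 95% counting interval, blue crosses are the input alone, and dotted lines mark 2-fold. In cluster 16 the first 12 bins lie between -0.49 and 0.44, and most bins of the second stretch lie near or above 1.

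Clusters 138, 59 and 137 were the only ones of the 17 with a median change below -0.37. They held 70 bins, of which 26 (37.1%) were at least 2-fold lower and 6 at least 2-fold higher. Only 9 of the 26 lay beyond their 95% counting intervals. Their median change was -0.92 in the IP alone and 0.82 in the input alone, on medians of 5 and 8 input reads, so that about as much of the difference lay in the input as in the IP. What part of these values counting error in a few input reads has was not tested.

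Cluster 59 (30 bins, 11338 to 41000) lay nearest to the start of 3RHet and had the highest GFP_KD occupancy of the 17 clusters, 2.84, against 1.77 in enok_KD. Its median change was -0.72, with 25 of 30 bins lower. None of its bins held 20 reads in every library at the lowest counts that the values allow, and some may hold more. The pooled reads of the cluster gave a change of -0.71 ± 0.14, of which -0.55 was in the IP. A run of 5 adjoining bins at least 2-fold lower spanned 29001 to 34000, with changes from -3.16 to -1.11. The highest GFP_KD occupancy of all members, 4.81 at 29001 to 30000, belonged to this run, but the bin had an input of 0.21 and 0.59 RPM and an IP of 5.81 and 3.14 RPM, with 1 and 3 input reads. The bin with the highest enok_KD occupancy of the cluster was 20001 to 21000, with an input of 1.95 and 1.05 RPM and an IP of 36.3 and 26.7 RPM. Its occupancy was 4.22 in GFP_KD and 4.67 in enok_KD, and the change of 0.45 ± 0.66 lay within counting error.

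Cluster 138 (19 bins, 1029684 to 1067000) had medians of 1.53 and 0.88 and a median change of -0.73, and 15 of its bins were lower. It also held the most extreme upward value of all members, 3.96 ± 1.65 at 1041001 to 1042000, which rested on 1 enok_KD input read. The adjoining bin, 1042001 to 1043000, had the highest GFP_KD occupancy of the cluster, 2.76, against 0.44 in enok_KD, with 4 and 10 input reads. Neighbouring bins with few reads thus took values at opposite ends. Cluster 137 (21 bins, 185301 to 208455) had medians of 1.20 and 0.87 and a median change of -0.64, with 7 bins at least 2-fold lower and 3 at least 2-fold higher. A run of 3 higher bins, 185301 to 188000, was followed by a run of 3 lower bins, 190001 to 193000, and the pooled reads gave -0.28 ± 0.14. In the 3 bins of the cluster with at least 20 reads in every library the median change was 0.14, in the other direction. The highest GFP_KD occupancy of the cluster, 3.65 at 204001 to 205000, rested on 1 input read. The highest of enok_KD, 2.23 at 186001 to 187000, rested on 5 or more.

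**Figure D4:**
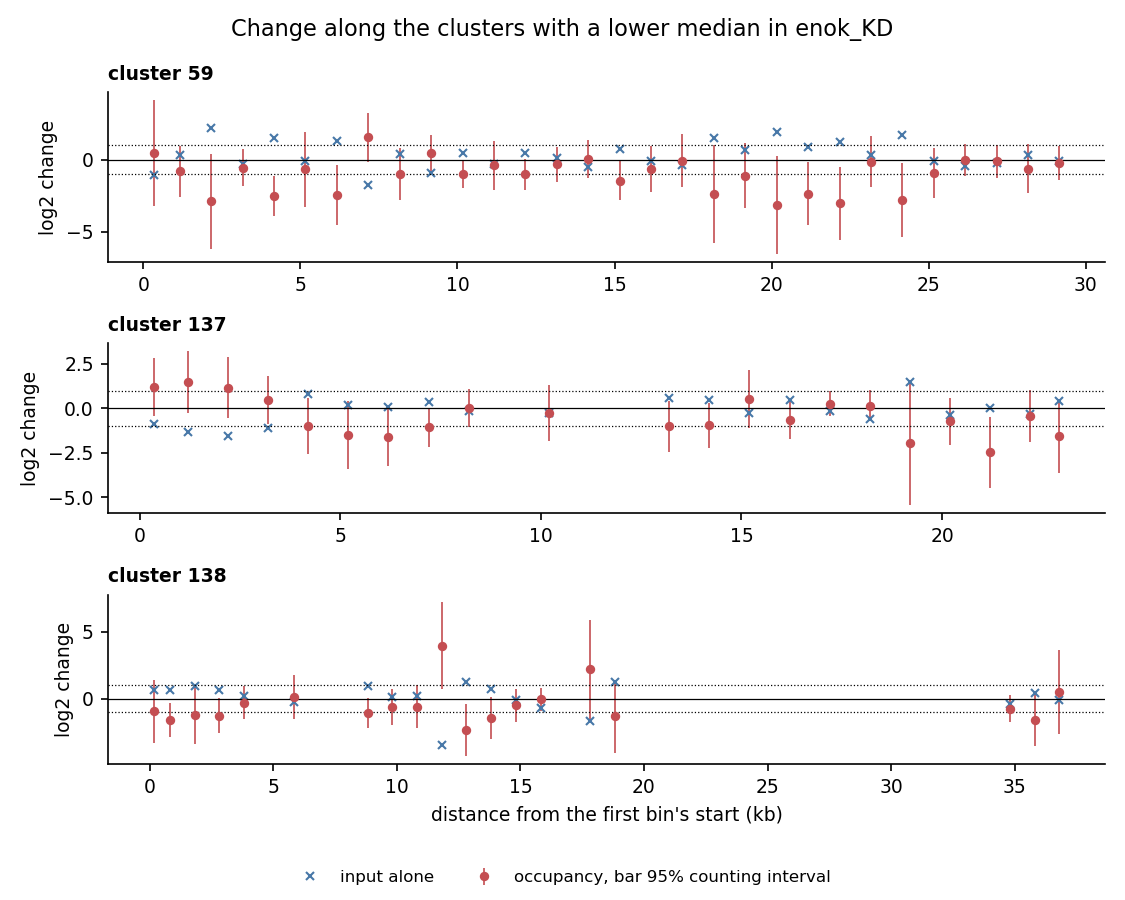
The log2 change (y axis) of each bin in clusters 59, 137 and 138 against its distance from the start of the cluster's first bin in kb (x axis). Red points are occupancy with bars of the 95% counting interval, blue crosses are the input alone, and dotted lines mark 2-fold. The bars are wide. Where the change of occupancy is strongly negative, the change of the input alone is often positive, as in the run of cluster 59 with changes from -3.16 to -1.11.

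The 5 largest downward changes among the members at or above the median level came from clusters 60, 81, 138 and 30. At 108001 to 109000, in cluster 60, the input was 6.88 and 7.89 RPM and the IP 27.5 and 8.57 RPM in GFP_KD and enok_KD, a change of -1.88 ± 0.67. The difference in this bin lay almost wholly in the IP. At 117001 to 118000, in the same cluster, the input was 3.44 and 5.69 RPM and the IP 28.2 and 13.5 RPM, a change of -1.79 ± 0.72. At 1149001 to 1150000, in cluster 81, the input was 8.91 and 11.6 RPM and the IP 53.7 and 20.7 RPM, a change of -1.75 ± 0.79. In these bins the IP was lower and the input somewhat higher in enok_KD. At 1030001 to 1031000, in cluster 138, the input was 5.44 and 8.41 RPM and the IP 29.1 and 15.0 RPM, a change of -1.59 ± 0.65. At 2338001 to 2339000, in cluster 30, the input was 4.20 and 7.94 RPM and the IP 13.8 and 9.12 RPM, a change of -1.51 ± 0.57, and here the input moved more than the IP.

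The other 10 clusters held 277 bins with a median change of -0.11, of which 20 (7.22%) were at least 2-fold higher and 35 (12.6%) at least 2-fold lower. Cluster 60 (38 bins, 107055 to 154719) had the second highest GFP_KD median, 1.79, against 1.63 in enok_KD, with a median change of -0.25. Cluster 104 (18 bins, 1099062 to 1119000) had 1.54 and 1.13, a median change of -0.24 and 0 bins at least 2-fold higher, and its pooled reads gave -0.60 ± 0.13. The bin 1117001 to 1118000, its deepest, had an input of 18.3 and 24.5 RPM and an IP of 43.6 and 27.8 RPM, a change of -1.07 ± 0.25. It is named because of its depth, after its values were seen. Cluster 93 (24 bins, 2281391 to 2307000) had the lowest occupancy in both knockdowns, 0.47 and 0.30, with a median change of -0.24.

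Cluster 67 (35 bins, 889003 to 925000) had medians of 1.06 and 0.93 and a median change of -0.22, and its pooled reads gave 0.26 ± 0.09. In its bins 920001 to 921000 and 921001 to 922000, which held 557 and 275 IP reads in GFP_KD and 811 and 406 in enok_KD, occupancy itself changed by -0.04 and -0.22, since their input was higher in enok_KD by 0.86 and 1.06. Their IP alone was higher in enok_KD by 0.81 and 0.83, and they held a large part of the cluster's 2062 and 2097 IP reads. Pooling weighs bins by their reads, so the pooled value depends on these bins although neither had a higher occupancy. Cluster 89 (11 bins, 837001 to 863000) had medians of 1.17 and 1.56 and a median change of -0.02, while its pooled reads gave -0.43 ± 0.13. Its reads lay mainly in 4 bins of its second stretch. In the strongest of these, 854001 to 855000, the input was 67.2 and 64.4 RPM and the IP 597.2 and 349.7 RPM in GFP_KD and enok_KD, a change of -0.71 ± 0.27. The 4 deep bins of cluster 89 were all below 0, at -0.71 to -0.04, and its 5 bins above 0 lay outside them.

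Cluster 30 (58 bins, 2309001 to 2372457), the one with the most bins, had medians of 0.81 and 0.62 and a median change of -0.10, with 1 bin at least 2-fold higher and 6 at least 2-fold lower. Cluster 69 (32 bins, 1390001 to 1472907) had medians of 1.63 and 1.91, the highest of all in enok_KD, and a median change of 0.18. Cluster 81 (23 bins, 1122001 to 1162411) had medians of 1.27 and 0.97 and a median change of 0.04. Bins above 0 numbered 23 of 58 in cluster 30, 18 of 32 in cluster 69 and 13 of 23 in cluster 81.

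Cluster 53 (28 bins, 533743 to 574000) had medians of 0.71 and 0.80 and a median change of 0.05. Its bin 561001 to 562000 held by far the most reads of any member, with an input of 633.1 and 575.8 RPM and an IP of 350.4 and 318.2 RPM. The IP of this bin lay below its input in both knockdowns, with occupancies of -0.85 and -0.86, and its change was 0.00 ± 0.06. Cluster 96 (10 bins, 2183001 to 2199481) had medians of 0.54 and 0.67 and a median change of 0.07.

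Bins that adjoin tended to change alike. Over the 386 pairs of adjoining bins within a cluster, the changes of occupancy had a Pearson r of 0.37 and a Spearman rho of 0.41. For the IP alone Pearson r was 0.71, and for the input alone 0.13. These values describe pairs that share libraries, fragments at bin borders and, within a cluster, the same level of change, and no test was made of them.

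The peak lists, called on each IP library separately, gave a second readout of the same IPs, which also rests on the depth of each library. Of the 81 GFP_KD peaks on 3RHet, 36 overlapped a member, and of the 101 enok_KD peaks there, 50 did. The GFP_KD peaks covered 13.2 kb of the member bins and the enok_KD peaks 33.7 kb. Over all bins of both tables the lengths were 210.1 and 210.4 kb, and the whole lists held 1066 and 817 peaks. In Enok-unbound bins they were 26.4 and 54.5 kb on the assembled arms and 21.8 and 25.6 kb on 3LHet. In Enok-bound bins they were 13.1 and 19.6 kb on 3LHet and 0.545 and 0.287 kb on 3RHet. A greater length in enok_KD was thus not particular to the members. The enok_KD IP had 0.83 times the reads of the GFP_KD IP, and the part of depth in these lengths was not tested. A GFP_KD peak overlapped 40 members (8.58%), against 15.7% of all bins, and an enok_KD peak 63 members (13.5%), against 15.7% of all bins. Neighbouring bins can share a peak, so these shares carry no interval. The 37 bins with a peak in enok_KD alone were higher in enok_KD in every case, with medians of 0.77 and 1.94, and 13 of the 14 bins with a peak in GFP_KD alone were lower. Both readouts come from the same IP reads, so the peaks are not independent support for the changes.

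Clusters 50, 37, 49 and 16 accounted for most of the added length. Cluster 50 had 0 peaks in GFP_KD and 5 in enok_KD, and clusters 37 and 49 each had 1 and 7. Cluster 16 had 11 peaks in each list, but these covered 4.63 kb of its bins in GFP_KD and 12.7 kb in enok_KD. In the other direction, cluster 104 had 4 peaks in GFP_KD and 0 in enok_KD, and cluster 59 had 3 and 1. No peak of either list touched clusters 137, 138, 96 and 93.

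**Figure D5:**
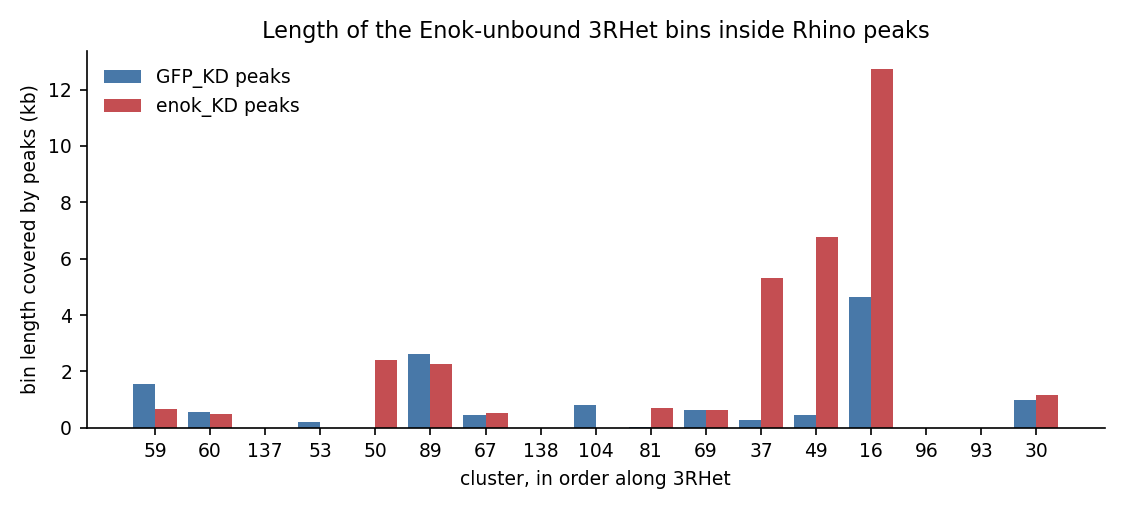
Length in kb of the member bins covered by peaks (y axis, from 0) in GFP_KD (blue) and enok_KD (red) for the 17 clusters in order along 3RHet (x axis). The enok_KD bars are the longer by the widest margins in clusters 50, 37, 49 and 16, where cluster 16 has 12.7 kb against 4.63 kb, and by under 1 kb in clusters 81, 30 and 67, and clusters 137, 138, 96 and 93 have none.

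The enok_KD peak with the highest fold enrichment on a member was 2094586 to 2101266 in cluster 16, at 21.7. It ran over 5 peaks of the GFP_KD list, the largest of them 2097878 to 2100139 with a fold enrichment of 9.78. The next in enok_KD were 2087607 to 2089921 in cluster 16 (9.55), 1154924 to 1155882 in cluster 81 (9.53), 854157 to 855024 in cluster 89 (8.71) and 1787529 to 1790510 in cluster 49 (8.54). In GFP_KD the strongest lay elsewhere, at 854108 to 854990 (13.7) and 855274 to 856152 (12.3) in cluster 89 and at 2312961 to 2313368 in cluster 30 (10.1), followed by the peak of cluster 16 above and by 1154980 to 1155558 in cluster 81 (8.30). A peak at the same place in cluster 89 was thus among the strongest of both lists.

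Peaks without an overlap in the other list numbered 15 of 36 in GFP_KD and 30 of 50 in enok_KD. In enok_KD the strongest of these were 1787529 to 1790510 in cluster 49 (8.54), 2086272 to 2086844 in cluster 16 (6.51) and 1668192 to 1669011 in cluster 37 (6.18). In GFP_KD they were weaker, at 911043 to 911265 in cluster 67 (4.0), 1116604 to 1117177 in cluster 104 (3.77) and 2309629 to 2309861 in cluster 30 (3.71). Peaks without an overlap were not counted over the whole lists, so 15 of 36 and 30 of 50 have no background. These counts also depend on how peaks are split, as a long peak can overlap several of the other list.

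Other loci of the tables were set beside these members to see where they differed. The 338 Enok-unbound bins on 3LHet, the corresponding heterochromatin of the left arm, had a median change of -0.14, with 5.62% at least 2-fold higher and 11.2% at least 2-fold lower. The 305 Enok-bound bins on 3LHet had -0.06, 7.87% and 12.8%. The 552 Enok-unbound bins on the assembled arms had 0.15, 15.2% and 4.89%. The share of bins at least 2-fold higher among the members, 17.6%, was thus near that of the assembled arms and above that of 3LHet, while the share at least 2-fold lower was near that of 3LHet. Depth differed, with a median of 16 GFP_KD input reads in the members, 24 in the Enok-unbound bins on 3LHet and 32 on the arms. Beyond the 95% counting interval, 16.1% of the members were higher, against 10.9% and 19.6% in these 3LHet and arm bins. Lower beyond it were 6.01%, against 8.28% and 5.25%. With 1 library per group and bins that are neighbours, none of these differences was tested. The cluster medians had an SD of 0.57 over 17 clusters in the members, 0.41 over 10 clusters of the Enok-unbound bins on 3LHet and 0.49 over 18 clusters on the assembled arms. For the input alone these SDs were 0.19, 0.11 and 0.09, so the input also varied most in the members. The 22 Enok-bound bins on 3RHet formed a single cluster, with a median change of -0.10. Of them 18.2% were at least 2-fold higher and 13.6% at least 2-fold lower, shares near those of the members. Beyond the 95% counting interval, 4.55% were higher and 4.55% lower, 1 bin each way, against 16.1% and 6.01% of the members. A single cluster allows no comparison of classes on this sequence.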

How the data were processed

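Input and Rhino IP libraries of GFP_KD and enok_KD ovaries, 1 of each, were analysed. The authors aligned single-end reads to dm3 with Bowtie2 2.2.1, kept unique mappers without mismatches, and scaled the reads in each 1 kb bin to the uniquely mapped reads of the library (RPM) and to the mappability of the bin. Repeated sequence that cannot be placed uniquely is therefore not counted. The methods speak of pooled replicates for bins. The labels give 1 library per group, and whether a column pools replicates is not given in the sources used here. The deposited peak lists give each peak's fold enrichment as a ratio and −log10 p and q values, of which only position and fold enrichment were used. MACS2 is among the tools in the submitters' processing notes, with no role given, and the control for the peaks is not given in the sources used here.

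Occupancy was the log2 ratio of IP to input, without a pseudocount. The authors' rank test over bins was not used because bins of 1 library are not replicates. Reads were recovered from the deposited RPM values. The depth of a library was the number of reads at which most of its 600 lowest values became whole, and the index of a bin was the smallest in steps of 0.001 from 0.1 that gave whole reads in all 4 libraries. This held for 100% of bins. A single index was possible for 48.1% of the members, and for the rest the reads are lower limits and the counting SE an upper limit. The procedure was tested on simulated data. No count test was run.

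A 2-fold change served as the threshold, and the background is its share over all bins of both tables. Named were every cluster with at least 10 bins, the 5 largest changes each way among members at or above the members' median level, the bins of highest occupancy in the 3 clusters at each end, and, per list, the 5 strongest peaks and the 3 strongest without an overlap of 1 bp in the other list. Other bins were named after their values were seen. Members, clusters and rules were chosen with earlier results of these data known. Alternatives were another pseudocount, the IP alone, centring, read and level minimums, other thresholds and summed values. Python 3.11.15, numpy 2.4.6, pandas 2.3.3 and scipy 1.17.1 were used. Sequences and gene annotation of dm3 were not used here.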

Additional observations from a re-analysis of the deposited data

How the results depend on the processing

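No paired analysis was possible because the knockdowns have a single library of each kind. The median change over the members, 0.00, lay outside its 95% interval over bins (-0.08 to 0.09) for the IP alone (-0.17), for the upper part of the members by level (0.13), with at least 20 reads (0.25), for summed RPM (0.23) and for pooled reads (0.39), an alternative chosen after seeing the data. This interval treats neighbouring bins as independent and covers no spread between libraries, so it is too narrow and serves only to sort the alternatives. With at least 20 reads in every library, 167 members remained. The 82 bins at least 2-fold higher became 47 for the IP alone, 43 of these 167 and 127 at 1.5-fold. The 61 bins at least 2-fold lower became 37 with a pseudocount of 1 RPM and 40 for the IP alone. They became 4 of these 167 and 116 at 1.5-fold. They became 22 when a change also had to exceed the counting interval, where all 2363 bins had 191. The other counts were not made over all bins. The median occupancy of 1.09 and 1.22 became 0.92 and 0.96 with the pseudocount and 0.84 and 1.06 in that upper part. Bins with a peak fell from 40 and 63 to 7 and 30 where peaks had to cover 50% of a bin. The median change of cluster 67, -0.22, turned to 0.12 with at least 20 reads, 0.33 for summed RPM and 0.26 for pooled reads. Of 114 alternative values of cluster medians, 14 in 7 clusters had the opposite sign. Besides these 3, they were in clusters 53, 69, 81, 89 and 96, whose medians lay between -0.02 and 0.18, and in cluster 137, which went from -0.64 to 0.14 with at least 20 reads. The median of cluster 89 also went from -0.02 to -0.71 in the upper part by level. Clusters 50, 37, 49 and 16 stayed between 0.58 and 1.19 under every alternative run, and cluster 59 between -0.71 and -0.33. Cluster 59 had no value at 20 reads, where it had 0 bins by the recovered reads, which are lower limits in part of its bins. The read minimum covers the enok_KD IP, so a lower value there removes a bin, and the counts under it are set in part by the change itself.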
